A study of Ciona robusta with 6 samples.

Results

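In cells of the *Ciona* anterior neural plate (ANP), 202 genes had a lower level in libraries with misexpressed *Lhx3/4*, still measurable in at least the highest of them. They were chosen from the measured values by one rule. CPM, the read counts scaled to all reads that a library had on genes, had to be at least 2 in the lowest of 3 control libraries. The highest of 3 *Lhx3/4* libraries then had to lie above 20% and at or below 50% of that lowest control library. Of 16526 gene models, 10150 met the control minimum, and these are called the expressed genes here. The 202 partly lowered genes make up 1.99% of them. In 9.61% of the expressed genes, and in 8.99% of the genes tested below, every *Lhx3/4* library lay under every control library, and in 2.74% of the expressed genes the highest *Lhx3/4* library was at or below 50% of the lowest control. Without control replicate 3, 355 genes would have met the bounds, 189 of them among the 202. Since the rule compared the same 6 libraries, every difference between the groups in these genes is given as a description without a test.

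*Ciona robusta* is a tunicate, a close invertebrate relative of vertebrates. Its ANP lies at the front of the neural plate and gives rise to the adhesive palps and the anterior brain. *Lhx3/4* encodes a LIM homeodomain transcription factor, a family that in vertebrates acts in motor neuron specification. A transcription factor placed in a lineage that does not normally rely on it can lower genes of that lineage either directly or through other regulators.

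Both groups were embryos raised at 18 °C and electroporated with *Dmrt>GFP*, in which the *Dmrt* driver marks the ANP lineage, and both were sorted on GFP. The 3 control libraries (replicates 1 to 3) carried no further plasmid, and the 3 *Lhx3/4* libraries carried *Dmrt>Lhx3/4* in addition. The sort selected GFP and not the second plasmid, so a sorted cell need not have carried it. PolyA RNA was counted with 52.6 to 71.2 M reads assigned to genes per library, which gave every gene of the 202 at least 117 reads in its lowest control library. Unaligned reads were 15.5% to 19.5% of all counts in the controls and 12.1% to 15.1% in the *Lhx3/4* libraries, and their part in the results was not tested.

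*Lhx3/4* itself stood at 29.2 to 51.3 CPM in the controls and at 553 to 681 CPM in the *Lhx3/4* libraries, so the labels hold in all 6. Reads of the plasmid and of the embryo's own gene were not told apart. *Onecut*, *Six3/6*, the *MSX2* homolog and *Tyrp-1*, taken as ANP genes, lay between 233 and 592 CPM in every control library. All 4 were at 1.61 to 58.6 CPM in the *Lhx3/4* libraries, too low for the rule, and none is among the 202. The paper picked *Onecut*, *Six3/6* and *Tyrp-1* out of these same libraries, as strongly lowered genes of high control expression. Their values are therefore no independent check of the ANP label. The 5 genes taken as markers of other lineages were higher with *Lhx3/4*, while the wider list of cardiopharyngeal genes given further on had calls in both directions. They do not stand for all regulators of these lineages. The paper reports other primary cardiopharyngeal targets as unchanged (*Irxa*, *Soxh* and *Gsc*) or lowered (*Elk1*, *Foxp* and *SoxC*). The cardiopharyngeal regulator *Foxf* was at 21.2 to 53.5 CPM in the controls and 152 to 180 CPM in the *Lhx3/4* libraries, *Irxb* at 13.1 to 28.8 and 57.3 to 108 CPM, and *Hand.r* at 0.618 to 3.19 and 5.55 to 12.1 CPM. The motor ganglion regulator *Nkx6* was at 1.49 to 3.07 CPM in the controls and 8.13 to 24.2 CPM in the *Lhx3/4* libraries, and *Vsx* had 0 to 6 reads and 83 to 118 reads. All 5 were higher in every *Lhx3/4* library than in every control library, and their part in the lowering described here was not tested. The paper names all 5 as up-regulated in these same libraries, so their rise was known when they were taken as markers and is no independent result. In bulk RNA, fewer cells that express a gene and less of its RNA per cell cannot be told apart.

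The 202 genes spanned a wide range of control expression. Their mean control level ran from 2.15 to 1633 CPM with a median of 27.9 CPM, and their mean level with *Lhx3/4* from 0.256 to 479.6 CPM with a median of 5.76 CPM. In the controls 143 of them reached 10 CPM, 57 reached 100 CPM and 15 reached 500 CPM. Of all gene reads they took 2.54% to 2.64% with control plasmid alone and 0.604% to 0.683% with *Lhx3/4*. The share was nearly the same in the libraries of each group. That the groups lay apart follows from the rule, which kept every *Lhx3/4* library of each gene well below every control library.

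**Figure D1:**
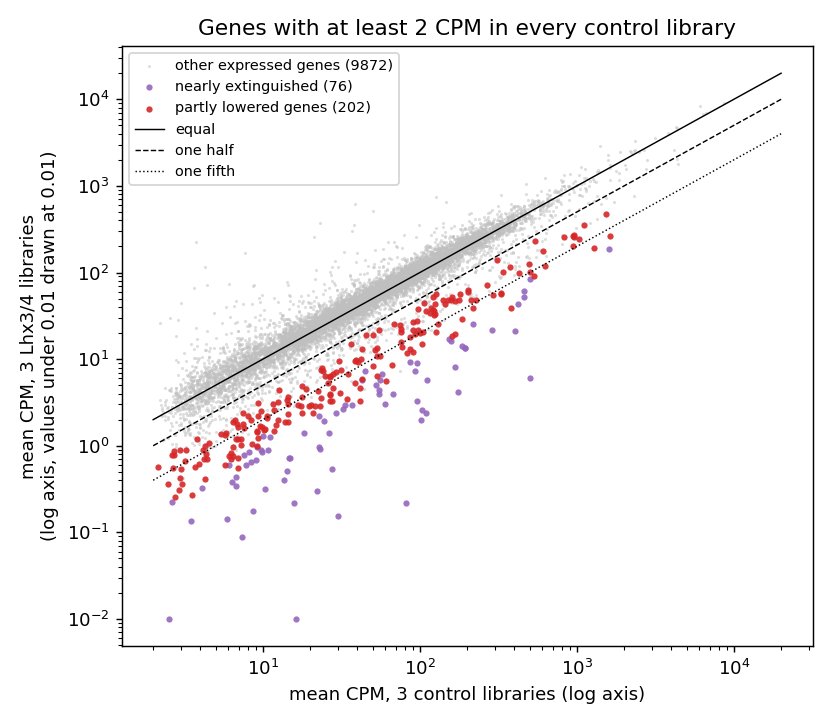
Mean CPM of each expressed gene in the 3 control libraries (x axis, log scale) and in the 3 *Lhx3/4* libraries (y axis, log scale, values under 0.01 drawn at 0.01), with the 202 partly lowered genes and the 76 genes whose highest *Lhx3/4* library was at or below 20% of the lowest control library in colours of their own. The 202 genes form a band below the diagonal, which the rule fixes, over the whole range of control levels, from 2.15 to 1633 CPM.

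By group means, the *Lhx3/4* level was 7.63% to 45.3% of the control level, with a median of 21.3%. That is a lowering of 2.21-fold to 13.1-fold with a median of 4.69-fold. Of the 202 genes, 89 kept under 20% of their control mean and 37 kept 30% or more. The means lie lower than the bounds of the rule because the rule set the highest *Lhx3/4* library against the lowest control library, and that ratio was 20.3% to 49.97% with a median of 37.2%. The bounds cut through a continuous range. The 3 genes just inside the lower bound were at 20.3%, 20.3% and 20.6%, and the 3 just outside at 19.9%, 19.9% and 19.5%. At the upper bound the nearest genes inside were at 49.97%, 49.9% and 49.8% and those outside at 50.11%, 50.13% and 50.14%. At the control minimum, the nearest genes inside were at 2.01, 2.02 and 2.03 CPM and those outside at 1.87, 1.83 and 1.80 CPM.

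Of the 202, 9 are given here by the name of a human homolog from the study's pairings, and the other 193 are known here by their gene model only. The roles given below are those known for the vertebrate proteins, and whether each gene model is the counterpart of its named protein was not checked.

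*ZIC4* (KH.S816.1) is the named transcription factor among them. ZIC proteins are zinc finger factors that act in the neural plate of vertebrates. It was at 64.1, 57.5 and 126 CPM in control replicates 1, 2 and 3 and at 8.89, 11.51 and 14.8 CPM in the *Lhx3/4* replicates. The groups did not overlap, and control replicate 3 stood well above the other controls. The means were 82.5 ± 37.7 and 11.72 ± 2.94 CPM (SD, n = 3 each), or 14.2% of control. *Ciona* carries several neighbouring and similar *ZIC* copies, so the split of reads between them is uncertain. The name itself is also less sure than the others, since it was paired through another version of the gene models in a list whose homolog column does not follow the order of its models.

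*GRM5* (KH.C6.147) encodes a metabotropic glutamate receptor, a protein of the cell membrane that passes signals into the cell. It was at 638, 177 and 333 CPM in the controls and at 54.8, 14.8 and 46.5 CPM with *Lhx3/4*. The 3 libraries of each group differed from each other more than for most genes, but their order by replicate number was the same in both groups. Each *Lhx3/4* library held 8.59%, 8.39% and 14.0% of the control library of its number, and the group mean was 10.1% of control, the lowest share among the 9 named genes.

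2 further names belong to secreted or matrix proteins. *NCAN* (KH.C9.818) encodes neurocan, a chondroitin sulfate proteoglycan of the brain's extracellular matrix. It was at 18.2, 38.7 and 26.3 CPM in the controls and at 3.08, 6.05 and 0.716 CPM with *Lhx3/4*. The *Lhx3/4* libraries were 8.44-fold apart, the widest spread among the named genes, and the mean was 11.8% of control. *GLIPR1* (KH.L59.3), the one gene of the neural tube closure list among the 202, belongs to a family of secreted cysteine-rich proteins. It was at 11.70, 9.20 and 10.9 CPM in the controls and at 1.06, 2.20 and 3.02 CPM with *Lhx3/4*, or 19.8% of control. Its control libraries lay close together.

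Parts of the cytoskeleton were represented by *FHDC1* and *MAP10*. *FHDC1* (KH.S651.1) encodes a formin, a protein that acts on actin filaments and microtubules. It was at 30.2, 23.8 and 20.9 CPM in the controls and at 9.02, 4.85 and 5.11 CPM with *Lhx3/4*, and at 25.3% of control it kept the largest share of the named genes. *MAP10* (KH.L119.20) encodes a microtubule-associated protein. Its control libraries were at 86.8, 86.4 and 136 CPM and its *Lhx3/4* libraries at 18.5, 14.2 and 11.8 CPM. Control replicate 3 was the highest control while *Lhx3/4* replicate 3 was the lowest of its group, and the mean was 14.4% of control.

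The remaining names are linked to RNA, translation and protein turnover. *EIF3A* (KH.L95.5), a subunit of a translation initiation factor, had the highest control level of the named genes. It was at 1132, 1823 and 922 CPM in the controls and at 136, 248 and 195 CPM with *Lhx3/4*. The means were 1292 ± 471 and 193 ± 56.1 CPM (SD, n = 3 each), or 14.95% of control. *A1CF* (KH.C12.11), an RNA-binding protein that takes part in the editing of apolipoprotein B mRNA in mammals, was at 27.5, 72.9 and 59.3 CPM in the controls and at 8.51, 6.003 and 4.80 CPM with *Lhx3/4*. Replicate 1 was the lowest control and the highest *Lhx3/4* library, and the mean was 12.1% of control. *TRIM2* (KH.C12.84), an E3 ubiquitin ligase of neurons and the one listed *Foxf* target among the 202, was at 28.8, 28.7 and 37.1 CPM in the controls and at 9.67, 4.73 and 8.17 CPM with *Lhx3/4*, or 23.9% of control.

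On the log2 scale, edgeR's quasi-likelihood fit gave the 9 named genes changes of -2.05 (SE 0.30) for *FHDC1* to -3.37 (SE 0.60) for *GRM5*, and *NCAN* had the largest standard error at 0.73.

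**Figure D2:**
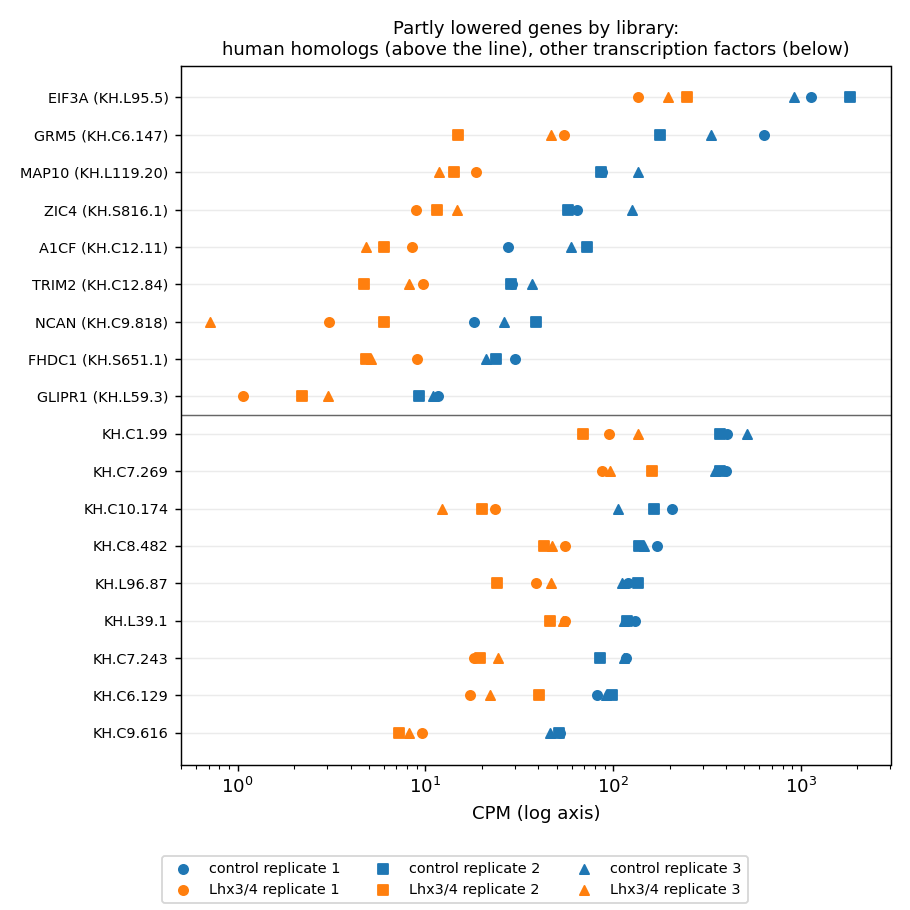
CPM (x axis, log scale) of the 9 genes with a human homolog name (above the line) and of 9 further transcription factors (below) in each control library and each *Lhx3/4* library, with 1 point per library and the marker shape giving the replicate number. In every row the 3 *Lhx3/4* points lie left of the 3 control points, which the rule fixes, while the distance and the spread differ from gene to gene.

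Transcription factors were 20 of the 202 genes (9.90%), whereas they are 2.33% of the expressed genes. No test was made of this difference. They are proteins that bind DNA and set which genes a cell transcribes. Their mean control level ran from 2.15 to 430 CPM with a median of 45.6 CPM, and they kept 7.97% to 42.9% of control with a median of 20.05%, against 21.4% for the 182 other genes. Across the whole list, edgeR tested 294 transcription factors, of which 49 (16.7%) were called lower, against 2.92% of all tested genes, and 10 (3.40%) higher, against 1.85%. Their median log2 change was -0.09 against 0.01 for all tested genes. Taking the replicate number as a block, edgeR called 72 lower (24.5%, against 6.94% of all tested genes) and 30 higher (10.2%, against 4.72%).

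The 2 transcription factors of highest control level were KH.C1.99 and KH.C7.269. KH.C1.99 was at 403, 371 and 516 CPM in the controls and at 94.97, 68.7 and 135 CPM with *Lhx3/4*, or 23.1% of control. KH.C7.269 was at 400, 373 and 350 CPM in the controls and at 86.7, 161 and 95.8 CPM with *Lhx3/4*, or 30.6%. KH.C10.174 had a lower control level, with 205, 166 and 106.01 CPM and at 23.4, 19.9 and 12.2 CPM. Its share was alike in each replicate number, at 11.4%, 12.03% and 11.51%.

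KH.C8.482, which the mid-tailbud list of cardiopharyngeal progenitor genes also holds, was at 171, 137 and 146 CPM in the controls and at 55.4, 42.9 and 47.3 CPM with *Lhx3/4*. It kept 32.5%, 31.2% and 32.5% of the control library of the same number, so both groups varied together. KH.L96.87, of the same list, was at 120, 135 and 111 CPM in the controls and at 39.0, 24.1 and 46.7 CPM with *Lhx3/4*, or 29.997% of control. KH.L39.1 kept the most of the 20, at 131, 118 and 114 CPM and at 55.6, 45.9 and 53.9 CPM, or 42.9%. These 3 varied little among the controls.

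KH.C7.243 was at 117, 85.2 and 114 CPM in the controls and at 18.2, 19.5 and 24.5 CPM with *Lhx3/4*, or 19.7% of control. KH.C6.129 was at 82.1, 98.1 and 92.0 CPM and at 17.2, 40.5 and 22.04 CPM, or 29.3%, with *Lhx3/4* replicate 2 above the other libraries of its group. KH.C9.616 was steady in both groups, at 52.0, 51.5 and 46.3 CPM and at 9.61, 7.20 and 8.17 CPM, or 16.7%. The 10 transcription factors not given above with values were at 2.15 to 41.3 CPM in the controls and kept 7.97% to 27.4% with a median of 15.4%.

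Of the 202 genes, 27 (13.4%) were among the 1000 genes of highest control expression, against 9.85% of the expressed genes. That list was chosen on the same control libraries. Their control level was 219 to 1633 CPM, and they kept 10.1% to 45.3% with a median of 23.8%. The highest, KH.L36.8, carries no name here. It was at 1920, 1803 and 1178 CPM in the controls and at 238, 229 and 328 CPM with *Lhx3/4*, or 16.2% of control. Replicate 3 was the lowest control and the highest *Lhx3/4* library.

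Cardiopharyngeal progenitors are the cells of the heart and pharyngeal muscle lineage. Their mid-tailbud list holds 23 of the 202 genes (11.4%), against 13.3% of the expressed genes. These 23 were at 6.98 to 952 CPM in the controls and kept 11.8% to 41.7% with a median of 23.9%. Of the whole list, edgeR tested 1522 genes and called 49 (3.22%) lower and 25 (1.64%) higher, near the 2.92% and 1.85% of all tested genes, with a median log2 change of 0.00. Blocking on the replicate number, it called 138 (9.07%) lower and 66 (4.34%) higher, against 6.94% and 4.72%.

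Among genes for the shape and contacts of cells, the list read as polarity and actin held 68 genes, more than the paper states for it. The lists of adhesion genes below held fewer than the paper states, so some genes may stand under the wrong list. The polarity and actin list as read had 61 expressed genes, of which *FHDC1* alone (1.64%) was partly lowered, against 1.99% of all expressed genes. Over its 65 tested genes edgeR called 4 (6.15%) lower and 1 (1.54%) higher, against 2.92% and 1.85% of all tested genes. The median log2 change was -0.06. No gene of the cadherin and protocadherin list (11 expressed), the laminin list (2 expressed) or the claudin list (1 expressed) met the rule, which says little for so few genes. Of 13 tested cadherin and protocadherin genes, edgeR called 1 (7.69%) lower, against 2.92% of all tested genes, and 0 higher. With the replicate number as a block it called 3 (23.1%) lower, against 6.94%, and 0 higher. Of 2 tested laminin genes 0 were called, and 1 was lower with the block. Of 7 tested claudin genes 0 were called, and 1 was higher with the block. The neural tube closure list had 29 expressed genes with *GLIPR1* as its only partly lowered gene (3.45%, against 1.99% of all expressed genes). Over its 52 tested genes edgeR called 5 (9.62%) lower, against 2.92% of all tested genes, and 0 higher, against 1.85%. DESeq2 called 10 of them lower and 0 higher, where it called 746 of all 13641 tested genes lower. The block on the replicate number gave 11 (21.2%) lower and 0 higher, against 6.94% and 4.72% of all tested genes. In edgeR, 0 of them were higher at an unadjusted p under 0.05. The share of all tested genes at that threshold was not taken, so nothing is read from this count. The paper's list of neural tube closure genes is longer than the list read here, and the paper reports an up-regulated gene in it. Of the 202, 136 genes had neither a name nor a place in any list. The lowest of these, KH.C2.236, was at 2.56, 2.03 and 2.90 CPM in the controls and at 0.570, 0.217 and 0.295 CPM with *Lhx3/4*.

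Each *Lhx3/4* library was also set against the controls on its own. The median gene was at 21.6%, 22.04% and 22.1% of its control mean in *Lhx3/4* replicates 1, 2 and 3. Set against the control library of the same number instead, the medians were 22.9%, 21.1% and 21.4%. The rule held every *Lhx3/4* library of every gene at or below 50% of the lowest control, so these medians were free to differ only within that bound and are no sign of stability.

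**Figure D3:**
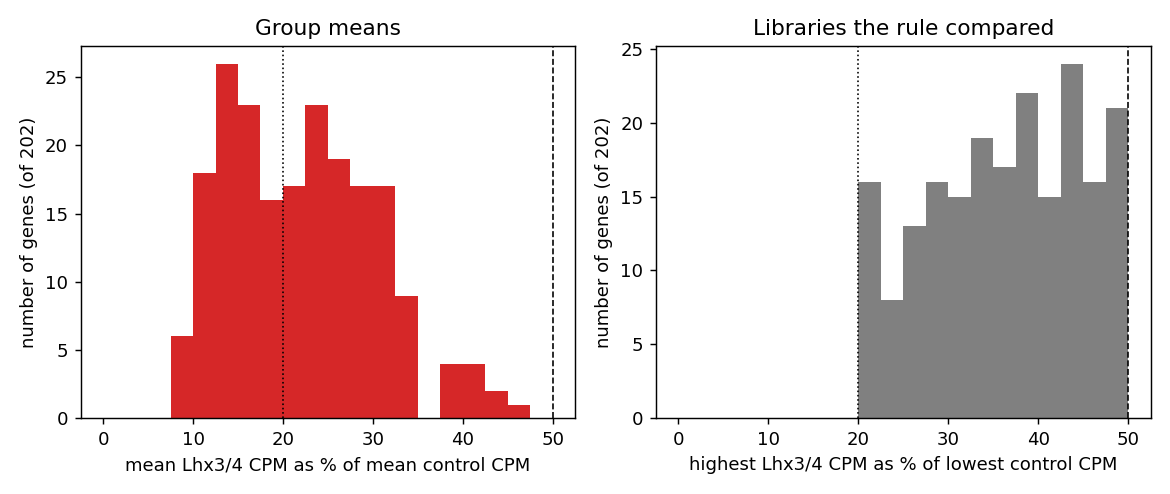
Number of the 202 genes (y axis) by the *Lhx3/4* level in percent of control (x axis), for the group means (left) and for the highest *Lhx3/4* library against the lowest control library (right), with lines at 20% and 50%. The right panel fills the range the rule set, 20.3% to 49.97%, while the group means spread from 7.63% to 45.3%.

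The level kept was lower among weakly expressed genes. In the 51 genes with the lowest control levels, 2.15 to 9.11 CPM, the median gene kept 17.9%, in the next 50 genes 17.7%, in the following 50 genes 22.4%, and in the 51 genes from 118 to 1633 CPM 27.4%. The spread went the same way. The highest *Lhx3/4* library was 2.75-fold, 2.20-fold, 1.52-fold and 1.54-fold above the lowest in the median gene of these sets, in the same order, and the highest control library 1.79-fold, 1.59-fold, 1.46-fold and 1.29-fold above the lowest. The rule limits the highest *Lhx3/4* library, so a gene with a wide spread must have a lower mean to meet it.

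Over all 202 genes the control libraries were 1.5-fold apart in the median and up to 4.17-fold, and the *Lhx3/4* libraries 1.79-fold in the median. In 19 genes the *Lhx3/4* libraries were more than 5-fold apart, and in 61 less than 1.5-fold. A few genes had almost no reads in 1 library. 6 genes had 3 reads or fewer in at least 1 *Lhx3/4* library, and 2 of them, picked out after their values were seen, had 0. KH.C9.466 had 385, 366 and 393 reads in the controls and 56, 0 and 89 reads with *Lhx3/4*. KH.L22.65 had 175, 136 and 376 reads in the controls and 0, 24 and 33 reads with *Lhx3/4*. In both, *Lhx3/4* replicate 3 alone placed the gene above the 20% bound, at 21.9% and 21.3% of the lowest control.

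The control libraries did not share the high values evenly. Control replicate 2 was the highest control in 93 of the 202 genes (46.0%), against 25.4% of the expressed genes, replicate 3 in 70 (34.7%, against 38.6%) and replicate 1 in 39 (19.3%, against 36.0%). Among the *Lhx3/4* libraries, replicates 1, 2 and 3 were the highest in 67, 73 and 62 genes. The same number was highest in both groups in 90 genes (44.6%), whereas it was in 63.8% of the expressed genes. No test was made of these shares, and the rule, which acts on the extreme libraries, bears on them.

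The rule was also applied to 2 replicate numbers of both groups at a time, which left the libraries of the other number as measurements it had not used. With number 1 held out, 275 genes met the rule, and in the held-out libraries the *Lhx3/4* level of the median gene was 30.2% of control. With numbers 2 and 3 held out, 276 and 375 genes met it, and their medians were 27.5% and 30.03%. The held-out *Lhx3/4* library was at or below 50% of its control library in 230 (83.6%), 235 (85.1%) and 286 (76.3%) of these genes, against 6.90%, 8.26% and 6.66% of all genes expressed in the libraries used. It was at or above its control in 6, 4 and 20 of them. Of the genes selected, 176, 176 and 177 are among the 202. The medians over all expressed genes were 105%, 104% and 106.2%.

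**Figure D4:**
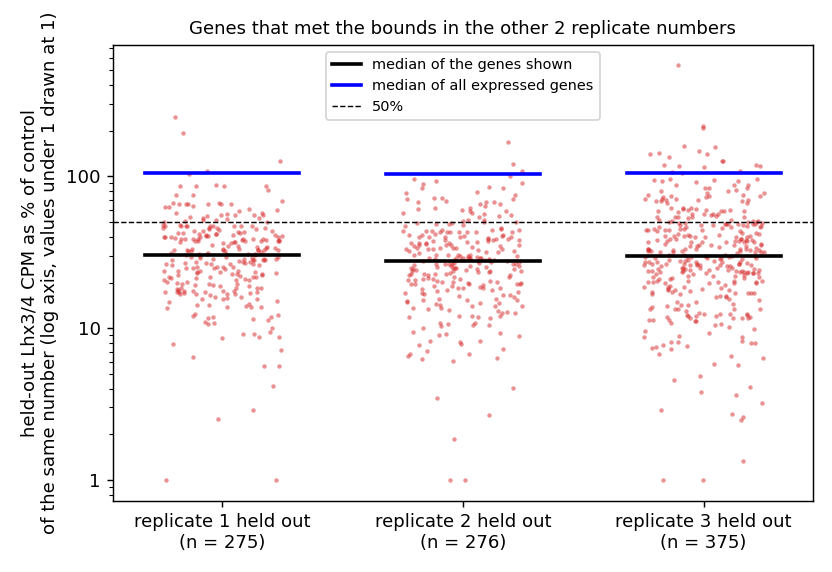
Ratio of the held-out *Lhx3/4* library to the held-out control library of the same number, in percent, for genes that met the rule in the other numbers and for all expressed genes. The selected genes have medians of 30.2%, 27.5% and 30.03%, against 105%, 104% and 106.2% for all expressed genes.

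All 202 genes passed the filter on low counts and entered the fit over all genes. edgeR's quasi-likelihood test called 165 of them lower, where 2.92% of all tested genes were called lower, and the rule used this same contrast, so nothing is read from the count. Blocking on the replicate number gave 199 of the 202, where 6.94% of all tested genes were called lower, and all 165 were among them. The median log2 change was -2.30 over the 202 and 0.01 over all tested genes. The 37 genes that edgeR did not call, *NCAN* among them, had a median control level of 4.38 CPM and *Lhx3/4* libraries 4.60-fold apart, whereas the 165 called had 45.3 CPM and were 1.67-fold apart. *NCAN* was called lower with the block on the replicate number, at a log2 change of -3.43, and by DESeq2.

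The 76 genes that fell below the lower bound, with their highest *Lhx3/4* library at or below 20% of the lowest control, had a control level much like that of the 202, with medians of 29.6 and 27.9 CPM. They kept a median of 7.61% of control. Their control libraries were 1.51-fold apart in the median gene, against 1.497-fold in the 202. Of these 76 genes, 14 (18.4%) were transcription factors, against 9.90% of the 202, and 5 (6.58%) were in the cardiopharyngeal list, against 11.4% of the 202. These shares were not tested, because both sets were chosen on the same contrast.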

How the data were processed

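GFP-sorted ANP lineage cells of *Ciona robusta* were sequenced as polyA RNA in 6 libraries, 3 per group. The authors deposited raw counts per KH2012 gene model, made with HTSeq after HISAT2 alignment to ci3. Tool versions and the strandedness of counting were not given in the sources used here. Reads of overlapping antisense genes may therefore be mixed. The 5 HTSeq summary lines of each table were left out. The labels name a New England Biolabs library kit and the paper's methods a Takara kit. A deposited table of the authors' own DESeq2 comparison was not used.

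CPM used the sum of gene rows of each library. All 16526 models were read, and genes whose 6 counts summed to 100 or more were fitted with edgeR 4.0.16 (quasi-likelihood, TMM) in R 4.3.3, adjusted by Benjamini-Hochberg over all 13641 genes. A gene was called where adjusted p was below 0.05 and its log2 change was 0.58 or more in size. Deviations from group means correlated at 0.55, 0.46 and 0.55 between libraries of one number across groups, so the numbers were taken as pairing the libraries in the alternative fit with a block. This rests on these values, since no label ties a number to a day. The embryos behind each library are not described, and p-values therefore reflect variation among libraries, which may be technical. Alternatives were DESeq2 1.42.0, RLE factors, other filters and rule bounds, and leaving out each library. The edgeR fits and DESeq2 were run on simulated counts that held no effect of the replicate number. The rule, the held-out step and the gene lists were not tested in this way.

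Members and lists were chosen with earlier results of these data known. The rule set 7 further models aside, of which 0 met its bounds. Homolog names come from the pairings of the study, and 1 item is not reported here. Named are the members with such a name, the 10 listed transcription factors of highest control level, members of the short lists, and the unannotated members of highest and lowest level. No KH model matched the RefSeq gene table, so no coordinates or sequences are given.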

Additional observations from a re-analysis of the deposited data

How the results depend on the processing

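The 202 genes depended on how the bounds were applied. An upper bound of 0.4 left 126 genes, and comparing group means gave 595, of which 113 were among the 202. With a replicate block, comparing libraries within each number, 163 genes met the bounds and 62 of them were among the 202. With DESeq2 size factors 216 met them, of which 194 were shared. Leaving out one library gave 215.0 to 355 genes, the lowest without *Lhx3/4* replicate 1 and the highest without control replicate 3. Over all tested genes, 398 were called lower by edgeR, against 746 by DESeq2, 947 with the replicate block and 246 to 426 without one library, the lowest without control replicate 2. Without *Lhx3/4* replicate 3 it was 265. Of the 202, 165 were called by edgeR, 199 with the block, 200 by DESeq2 and 121 to 150 without one library. None of the 20 named members changed direction under any alternative run. The rule had already placed each of their *Lhx3/4* libraries well below each control library, so the unchanged direction is no sign of stability. Of their alternatives, 11 lost the call, 4 (all of *NCAN*) gained it and 205 left it as it was. Depth limits the weakest genes, and 6 members had 3 reads or fewer in a library.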
